A study of Rattus norvegicus with 12 samples.

Results

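Alcohol, aldehyde, retinol, aldo-keto, steroid and carbonyl oxidoreductases mostly interconvert an alcohol and its aldehyde or ketone, or oxidize an aldehyde to its acid. NAD or NADP carries the hydride. These enzyme families were chosen with earlier results of these data known. Members were taken by gene symbol, as symbols beginning with Adh, Aldh, Akr, Rdh, Dhrs, Hsd or Cbr and a digit. ADH1_RAT and ALDH2_RAT, the table's names for the liver alcohol dehydrogenase 1 and the mitochondrial aldehyde dehydrogenase 2, were added. Of 74 such names, 67 were above 0 in at least 1 liver, out of 15270 gene names and 21718 transcript rows above 0 in the whole table. Where a gene had several transcript rows, the row with the highest mean level stood for it. The 67 members comprised 5 Adh, 15 Aldh, 16 Akr, 7 Rdh, 7 Dhrs, 14 Hsd and 3 Cbr genes. Akr1c18, Aldh3b2, Dhrs2, Dhrs7c, Hsd3b1, Rdh12 and Rdh8 were listed at 0 in all 12 livers and were not tested.

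Poly(A) RNA was sequenced from the livers of 12 female rats of the inbred alcohol-preferring iP10a strain. The 6 EtOH animals had free access to bottles of 10, 20 and 30% ethanol beside tap water and food for 23 weeks, and the 6 control animals had water and food. All were 38 weeks old at collection except EtOH animal 6, which was 39 weeks old. Because the strain was selectively bred for alcohol preference and then inbred, and intake was voluntary and not set per animal, the groups represent 1 genotype and 1 sex under a range of self-chosen intakes. Levels are given as RPKM (reads scaled to transcript length and to the mapped reads of the library), as deposited, and each group has n = 6 with SD as the error. Fitted differences are log2 differences, EtOH minus control, from limma on quantile-normalized log2(RPKM + 0.5) over all 21718 rows, with Benjamini-Hochberg adjusted p-values. A member is called where its adjusted p is below 0.05. A ratio of RPKM means carries no normalization between livers and can differ from the fitted value.

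The RPKM values were whole multiples of the value of 1 read, which gave 2610238 to 4318141 reads per control liver and 3945593 to 6030028 per EtOH liver, so the EtOH libraries were on the whole deeper. Hepatocyte genes dominated, with albumin alone at 70352 ± 9238 RPKM in control and 79085 ± 8514 in EtOH livers. Markers of other liver cells were present at far lower levels, and some of them were higher in EtOH livers. Of 5 Kupffer cell markers tested, 3 were called higher (Vsig4, Clec4f and Cd163), and the summed level of the list ran from 81.1 to 125.4 RPKM in control and from 113.9 to 147.4 in EtOH livers. Of 8 stellate cell markers, 1 was called higher (Col3a1), with sums of 26.4 to 35.8 and 33.2 to 52.8 RPKM. Of 4 endothelial markers, 1 was called higher (Cdh5), with sums of 27.7 to 35.3 and 32.7 to 45.5 RPKM. No cholangiocyte marker of 3 was called, and of 7 hepatocyte markers Cps1 was called higher. For comparison, 1.13% of all rows tested were called higher. Listed markers that matched no row were not tested. In bulk liver, fewer cells of a type and less RNA per cell cannot be told apart, and the part of these marker differences in the results below was not tested.

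In the liver, ethanol is oxidized to acetaldehyde mainly by cytosolic alcohol dehydrogenases and then to acetate mainly by mitochondrial ALDH2. The same superfamilies convert retinol to retinal and retinoic acid, reduce lipid peroxidation aldehydes, and carry out hydroxysteroid and ketosteroid steps of steroid, bile acid and cholesterol metabolism. The aldo-keto reductases act mostly in the reducing direction with NADPH, and several of them are known as genes induced by electrophiles through the transcription factor NRF2.

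Of the 67 members, 5 were called lower and 3 higher in EtOH livers, which is 11.9%, against 2.42% of all rows tested. Members are counted with 1 row per gene, that of the highest mean, whereas the background counts every row. Over all 85 rows of the members the counts were again 5 lower and 3 higher. Members with a mean of at least 1 RPKM numbered 49 and held all 8 calls, 16.3%, against 4.47% of the 11086 rows at that level. The genes that fell were Akr1b8, Akr7a3, Akr1b10, Hsd17b7 and Rdh11, and those that rose were Adh6, Akr1c19 and Akr1cl1. By direction the members' counts stand against a background of 1.29% called lower and 1.13% called higher among all rows. The families were chosen with earlier results of these data known, so these shares are no independent evidence about them. With the RPKM as deposited, with no normalization between livers, the split was 7 lower and 1 higher, and with median scaling 6 lower and 2 higher. Most members did not pass the test, and 37 had a negative and 30 a positive difference, with a median of -0.02 beside 0.00019 over all rows.

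The first group that fell consists of aldo-keto reductases that reduce aldehydes. Akr1b8 and Akr1b10 are aldose reductase-like enzymes that reduce lipid-derived aldehydes and retinal, and they lie in a cluster of 4 Akr1b genes spanning 161.5 kb of chromosome 4, in the order Akr1b1, Akr1b8, Akr1b10 and Akr1b7. The cluster is a set of neighbours with unlike levels and unlike differences, so the bases just before their annotated starts are shown. Each line gives the 80 bases that precede the start, 5′ to 3′ on the plus strand, from RefSeq (build GRCr8), at chr4:63964341-63964420 for Akr1b8, chr4:64005552-64005631 for Akr1b10 and chr4:64043890-64043969 for Akr1b7.
Akr1b8: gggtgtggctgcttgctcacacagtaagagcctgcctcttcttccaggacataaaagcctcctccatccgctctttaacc
Akr1b10: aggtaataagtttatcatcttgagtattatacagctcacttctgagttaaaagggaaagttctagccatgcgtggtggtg
Akr1b7: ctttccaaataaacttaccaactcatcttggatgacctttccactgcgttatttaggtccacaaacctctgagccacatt
None of these stretches is in capitals because none held the letters TGACNNNGC, the core of the antioxidant response element that NRF2 binds, or TCACNCCAC, a sterol regulatory element, in the windows searched on both strands.

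Akr1b8 (chromosome 4, 61714290 to 61726856 in the deposited table, for which the sources used here name no genome build) had the largest fitted fall of the members called. Its control livers ran from 8.02 over a median of 23.9 to 78.7 RPKM, and its EtOH livers from 3.03 over 3.26 to 4.08 RPKM. The lowest control liver, animal 1, was still above the highest EtOH liver, EtOH animal 1, so the groups did not overlap. The means were 31.0 ± 24.8 and 3.39 ± 0.390 RPKM, a ratio of 9.13, and the fitted log2 difference was -2.58 (SE 0.38, limma adjusted p = 0.0057). The EtOH level rests on 103 reads over 6 livers, against 698 in controls.

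Akr1b10 (chromosome 4, 61757580 to 61771261) ran from 3.82 over 9.41 to 26.3 RPKM in control livers and from 1.84 over 2.47 to 4.15 RPKM in EtOH livers. Here the groups overlapped, since control animal 6 lay below EtOH animal 6. The means were 12.2 ± 8.17 and 2.65 ± 0.814 RPKM, with 382 reads in control and 114 in EtOH livers. The fitted difference was -1.74 (SE 0.35, limma adjusted p = 0.028). This call was lost when any of EtOH animals 1 to 5 or control animals 4 or 5 was left out, with adjusted p up to 0.066, and also with limma voom (0.053) and in the square-root test (0.10).

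The neighbours on either side were not called. Akr1b7, an aldose reductase-like protein first described in vas deferens, was the most abundant of the cluster at 207.1 ± 25.6 and 192.8 ± 36.6 RPKM, with a fitted difference of 0.02 (95% interval -0.25 to 0.29). Akr1b1, aldose reductase itself, the first enzyme of the polyol pathway, stood at 4.06 ± 0.529 and 4.19 ± 1.21 RPKM, with a fitted difference of 0.08 (95% interval -0.27 to 0.42). Akr1b genes resemble one another in sequence, and the sources used here do not state how reads that match several of them were assigned.

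Akr7a3 (chromosome 5, 158139986 to 158147516), the aflatoxin aldehyde reductase, ran from 31.1 over 75.1 to 151.5 RPKM in control livers and from 11.2 over 17.5 to 18.8 RPKM in EtOH livers. No EtOH liver reached the lowest control liver. The means were 83.8 ± 49.7 and 16.1 ± 2.95 RPKM, a ratio of 5.22, and the fitted difference was -1.98 (SE 0.34, limma adjusted p = 0.013). Its neighbour Akr7a2, a succinic semialdehyde reductase within the same 49.9 kb, was at 77.1 ± 20.7 and 52.4 ± 8.09 RPKM, and its difference of -0.36 was not called (adjusted p = 0.22).

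**Figure D1:**
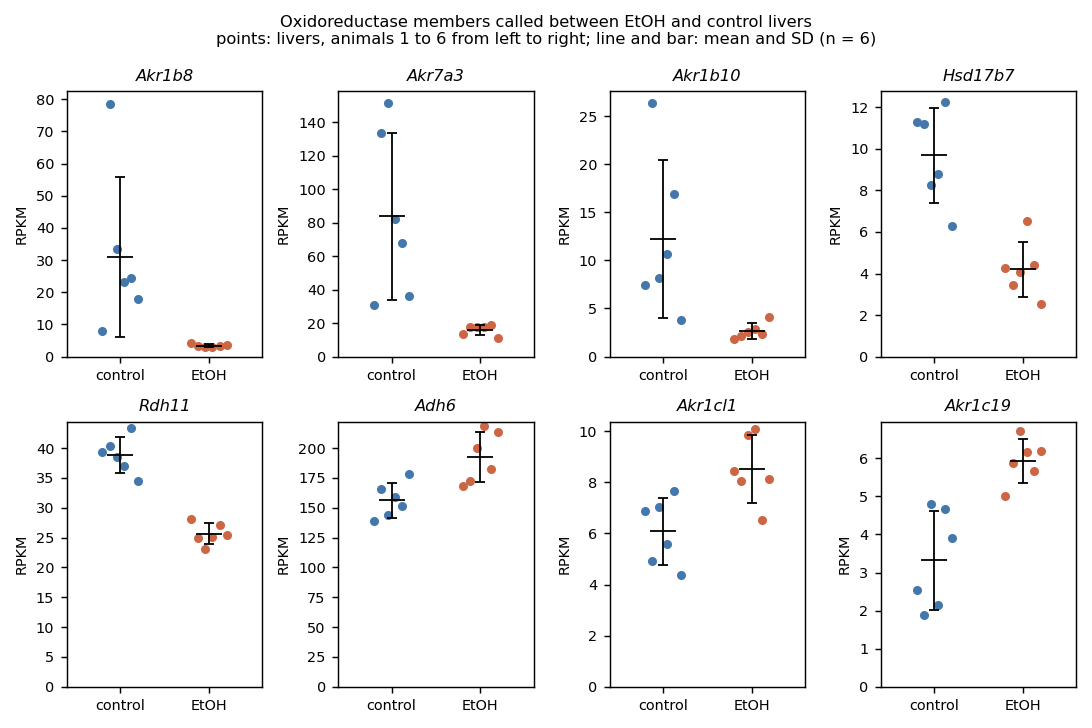
RPKM of the 8 called members in each of 6 control and 6 EtOH livers, with the mean and SD, all axes starting at 0. Akr1b8, Akr7a3, Akr1b10, Hsd17b7 and Rdh11 sit lower in EtOH livers and Adh6, Akr1cl1 and Akr1c19 higher, and the control spread is wide for the first 3.

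The control animals were spread more widely in these aldehyde reductases than the EtOH animals. For Akr1b8 the coefficient of variation was 80.1% in control and 11.5% in EtOH livers, for Akr7a3 59.3% and 18.4%, and for Akr1b10 66.8% and 30.7%. Across the 49 members with a mean of at least 1 RPKM the median coefficient of variation was 16.1% and 14.1%. The low control livers were the same in each gene: animals 1 and 6 held the 2 lowest control values of Akr1b8, Akr1b10 and Akr7a3. At the high end the order differed. Animal 2 was highest in Akr1b8 and Akr1b10 and second in Akr7a3. Animal 3 was highest in Akr7a3 and second in Akr1b8, but had only rank 4 in Akr1b10, at 8.13 RPKM. In Aldh1a1, too, animals 1 and 6 were lowest, and animal 2 was highest. The order in the control group was seen in the values and was not chosen beforehand, and what sets it was not tested.

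Aldh1a1 (chromosome 1, 223731659 to 223773219), the cytosolic retinal dehydrogenase, was the uncalled member closest to the threshold. It ran from 70.5 over 130.8 to 189.9 RPKM in control livers and from 38.8 over 59.6 to 67.9 RPKM in EtOH livers. The groups did not overlap, though control animals 1 and 6 lay only just above the highest EtOH liver. The means were 124.2 ± 46.3 and 56.5 ± 11.3 RPKM, and the fitted difference of -0.90 (SE 0.22, 95% interval -1.39 to -0.42) had a limma adjusted p of 0.055. It passed the threshold in 9 of 23 alternative fits, among them those without control animal 1 or 6, so neither a fall nor its absence can be stated at this threshold.

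**Figure D2:**
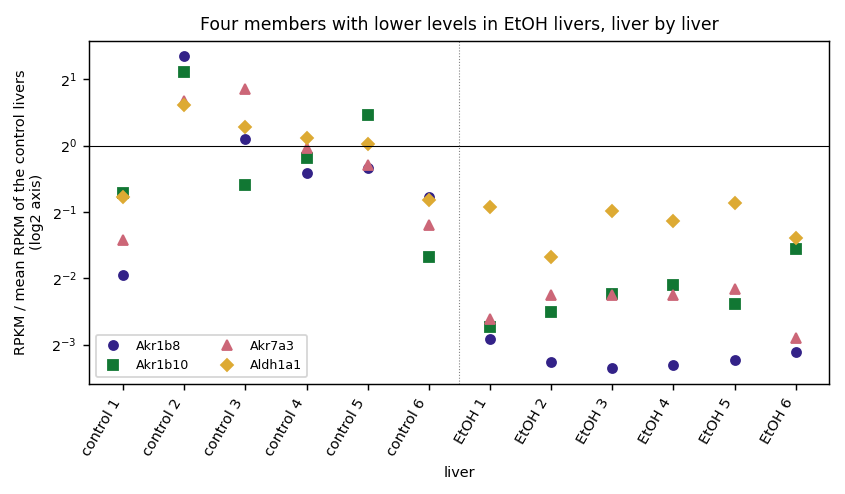
RPKM of Akr1b8, Akr1b10, Akr7a3 and Aldh1a1 in each liver, divided by the mean of the 6 control livers and drawn on a log2 axis. Control animals 1 and 6 lie below the other control animals in all 4 genes, and in the EtOH livers Akr1b8 stays between 0.0979 and 0.132 of the control mean.

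The genes on fixed lists outside the families were counted for context. The list of NRF2 targets was chosen with earlier results of these data known and so is no independent evidence of direction. It had 10 genes tested, with a median difference of -0.63. None was called higher and 6 were called lower, beside 1.29% of all rows called lower. The 6 were Gclc and Gclm, the subunits of glutamate-cysteine ligase, Txnrd1, thioredoxin reductase, Ephx1, microsomal epoxide hydrolase, Me1, malic enzyme, and Pir. Ephx1 fell from 487.1 ± 208.7 to 189.6 ± 22.2 RPKM, a fitted difference of -1.17 (limma adjusted p = 0.029), and Me1 from 32.7 ± 9.92 to 10.8 ± 2.84 RPKM, a fitted difference of -1.40 (limma adjusted p = 0.0039). Nqo1, which is also on the list of other NAD(P)-dependent reductases, did not overlap between groups at 19.9 ± 6.13 and 11.2 ± 2.58 RPKM but was not called (adjusted p = 0.12). On that second list of 15 genes tested, Pecr, peroxisomal trans-2-enoyl-CoA reductase, and Sord, sorbitol dehydrogenase, were called lower and none higher, with a median of -0.12.

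The core TGACNNNGC was searched on both strands of 300-base windows, 250 bases before to 50 after each RefSeq start in GRCr8, with the first listed window taken for each gene. It was found in 12.2% of 27457 windows and in 8 of the 51 members that matched a window, 15.7%. All 8 called members matched, and 2 of them held it, Hsd17b7 among the 5 that fell and Akr1cl1, listed there as Akr1c15, among the 3 that rose. TCACNCCAC was found in 1.13% of windows and in 1 member, Akr1a1. No member's window held both. A match is only a run of letters, and its absence from a window of this length says nothing of binding elsewhere.

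The second group that fell holds enzymes of retinal and sterol reduction. Rdh11 (chromosome 6, 101946432 to 101962606), a microsomal retinal reductase, had the smallest p of all members. Its control livers ran from 34.5 over 39.0 to 43.4 RPKM and its EtOH livers from 23.1 over 25.3 to 28.1 RPKM. Both groups were tight and they did not overlap. The means were 38.9 ± 3.02 and 25.6 ± 1.77 RPKM, a ratio of 1.52, and the fitted difference was -0.43 (SE 0.060, limma adjusted p = 0.0039). It stayed called in all 23 alternative fits, with adjusted p up to 0.014.

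Hsd17b7 (chromosome 13, 85776077 to 85792977), the 3-ketosteroid reductase of cholesterol synthesis, ran from 6.29 over 10.0 to 12.3 RPKM in control livers and from 2.55 over 4.16 to 6.53 RPKM in EtOH livers. The groups overlapped because control animal 6 lay below EtOH animal 4. The means were 9.69 ± 2.28 and 4.21 ± 1.32 RPKM, and the fitted difference was -1.03 (SE 0.19, limma adjusted p = 0.020). Without EtOH animal 2 the adjusted p was 0.052. A transcript named LOC100361767 overlaps the gene in the table, and reads of the pair could not be separated by strand here.

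The 80 bases before the starts of the called members that held TGACNNNGC are given with the match in capitals where it falls inside them, again from RefSeq GRCr8 and 5′ to 3′ on the gene's strand, which is minus for both. They lie at chr13:84722755-84722834 for Hsd17b7 and chr17:71117958-71118037 for Akr1cl1.
Hsd17b7: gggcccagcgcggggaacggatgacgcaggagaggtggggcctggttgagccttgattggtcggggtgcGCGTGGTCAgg
Akr1cl1: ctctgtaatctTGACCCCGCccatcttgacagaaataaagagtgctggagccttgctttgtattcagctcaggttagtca
In Hsd17b7 the match is on the strand opposite to the gene, and in Akr1cl1 the match shown is on the gene's strand, with a second match upstream of the stretch shown, on the opposite strand.

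Other retinoid enzymes were not called. Rdh7, a microsomal retinol dehydrogenase, was the most abundant of its family at 497.2 ± 59.1 and 462.0 ± 36.8 RPKM, with a fitted difference of -0.02 (95% interval -0.15 to 0.11). Dhrs3, which reduces retinal to retinol, had the smallest p among Dhrs genes at 45.5 ± 7.32 and 32.4 ± 5.05 RPKM, with a difference of -0.34 (adjusted p = 0.12). Dhrs4, the most abundant Dhrs gene, stood at 57.9 ± 5.72 and 52.0 ± 8.83 RPKM and its fitted difference was 0.00098 (95% interval -0.21 to 0.21), a sign that changed with the scaling. Of 7 Rdh genes 1 was called, and 5 had a negative difference, with a median of -0.14. Of 7 Dhrs genes none was called, and 3 had a negative difference, with a median of 0.00098 (-0.29 over the 5 above 1 RPKM). The list of retinoid handling genes outside the families had 14 tested and none called lower. Rxra, the retinoid X receptor alpha, was called higher at 81.9 ± 2.84 and 88.0 ± 3.70 RPKM (fitted difference 0.24, limma adjusted p = 0.023). Among all rows tested, 1.13% were called higher.

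On the route of ethanol itself, neither of the main enzymes was called. ADH1_RAT (chromosome 2, 235799457 to 235811584), class I alcohol dehydrogenase, was the most abundant alcohol dehydrogenase and ran from 370.1 over 437.0 to 567.7 RPKM in control and from 305.2 over 352.9 to 399.6 RPKM in EtOH livers. The groups overlapped, and the fitted difference of -0.21 (95% interval -0.39 to -0.03) was not called (adjusted p = 0.24). ALDH2_RAT (chromosome 12, 36081803 to 36116445) ran from 343.5 over 363.3 to 428.8 RPKM in control and from 316.6 over 350.3 to 422.5 RPKM in EtOH livers. Those ranges nearly coincide, and the fitted difference was 0.06 (95% interval -0.06 to 0.19), below 0 with no normalization between livers.

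Adh6 (chromosome 2, 235907340 to 235938846), another alcohol dehydrogenase of the cluster that holds 5 Adh genes within 242.2 kb, was the only Adh gene called, and it rose. It ran from 139.0 over 155.3 to 177.9 RPKM in control and from 168.1 over 191.2 to 218.2 RPKM in EtOH livers. Control animal 6 lay above the lowest EtOH livers, so the groups overlapped. The means were 156.1 ± 14.4 and 192.5 ± 21.2 RPKM, a ratio of 1.23, and the fitted difference was 0.44 (SE 0.088, limma adjusted p = 0.025). It was not called with no normalization between livers (adjusted p = 0.064) or in the square-root test (0.050), nor when control animal 5 or EtOH animal 2, 3, 4 or 6 was left out, with adjusted p up to 0.057 in those.

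The remaining Adh genes had negative differences and were not called. Adh5, the glutathione-dependent formaldehyde dehydrogenase, stood at 88.0 ± 8.05 and 73.2 ± 12.7 RPKM in its main row (adjusted p = 0.50), and with its 3 rows summed the difference was 0.01. Adh7, the class IV enzyme typical of stomach, stood at 15.7 ± 2.03 and 12.3 ± 2.42 RPKM (adjusted p = 0.44). Adh6a had 2 recovered reads over the 12 livers. Akr1a1, the NADPH-dependent aldehyde reductase, ran from 125.6 to 195.3 RPKM in control and from 102.6 to 122.8 RPKM in EtOH livers, so its groups did not overlap, yet the fitted difference of -0.20 was not called (limma adjusted p = 0.13). Groups with all EtOH livers under all control livers made up 2.43% of the rows tested, and among members there were 5, namely Akr1b8, Akr7a3, Rdh11, Aldh1a1 and Akr1a1. The reverse held in 0.677% of rows and in 1 member, Akr1c19. Both shares count rows of every level, with values as deposited. The members named here all had a mean of at least 1 RPKM, and no share was worked out for rows at that level. The counts are therefore not read as a result about the members.

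None of the 15 Aldh genes tested was called, and their median difference was 0.06. Not every gene of the family was analysed here. Aldh9a1, which oxidizes aminoaldehydes, was at 295.4 ± 25.5 and 272.5 ± 25.7 RPKM, with a fitted difference of -0.02 (95% interval -0.13 to 0.08). Aldh1b1, a mitochondrial acetaldehyde dehydrogenase, was at 34.1 ± 4.41 and 41.4 ± 10.1 RPKM, with a difference of 0.41 (adjusted p = 0.25). EtOH animal 3, at 24.1 RPKM, was the lowest of all 12 livers in Aldh1b1, and without it the difference was 0.55 (limma adjusted p = 0.041). Aldh3a2, the fatty aldehyde dehydrogenase, was at 114.4 ± 16.0 and 86.2 ± 20.9 RPKM in its main row, with a difference of -0.29 (adjusted p = 0.41).

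Other routes of ethanol and acetate gave the following values. Cyp2e1, the microsomal ethanol-oxidizing cytochrome, was at 2187 ± 214 and 2731 ± 208 RPKM, and its difference of 0.34 was not called (limma adjusted p = 0.072). Cat, the peroxisomal catalase, was at 810.8 ± 137.2 and 626.6 ± 60.4 RPKM (adjusted p = 0.24). Acss2, the cytosolic enzyme that makes acetyl-CoA from acetate, fell from 54.7 ± 13.5 to 27.1 ± 5.19 RPKM, a fitted difference of -0.82 (limma adjusted p = 0.015). Of the 4 genes tested on that list it was the only one called, beside 2.42% of all rows called in either direction.

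**Figure D3:**
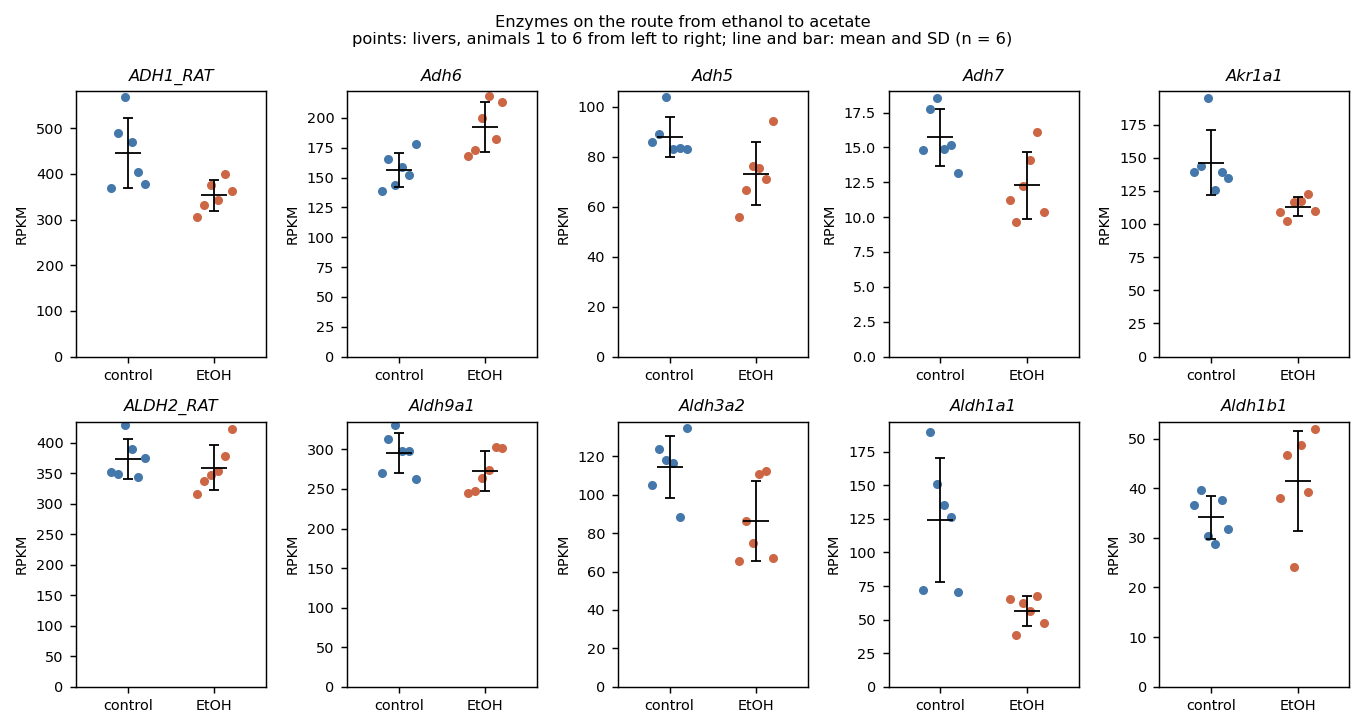
RPKM of 10 enzymes that oxidize ethanol or acetaldehyde or reduce aldehydes, in each of 6 control and 6 EtOH livers, with mean and SD and axes starting at 0. Adh6 is the only one called, Aldh1a1 and Akr1a1 show separate groups without a call, and ALDH2_RAT spans 343.5 to 428.8 in control and 316.6 to 422.5 in EtOH livers.

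The aldo-keto reductases that rose belong to the Akr1c cluster, 8 members within 397.9 kb of chromosome 17, which metabolize steroids and prostaglandins. Akr1c19 (chromosome 17, 77162221 to 77183258) ran from 1.89 over 3.22 to 4.80 RPKM in control and from 5.00 over 6.02 to 6.72 RPKM in EtOH livers. Each EtOH liver was above each control liver, though by little between EtOH animal 1 and control animal 3. The means were 3.32 ± 1.30 and 5.94 ± 0.581 RPKM, and the fitted difference was 0.89 (SE 0.20, limma adjusted p = 0.039). The control level rests on 103 reads, and the call held without control animal 3, 5 or 6 but was lost without any other single liver, with adjusted p up to 0.086.

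Akr1cl1 (chromosome 17, 77341133 to 77367689) ran from 4.38 over 6.22 to 7.67 RPKM in control and from 6.52 over 8.30 to 10.1 RPKM in EtOH livers. The groups overlapped between 6.52 and 7.67 RPKM. The fitted difference was 0.57 (SE 0.13, limma adjusted p = 0.046), and the call was lost in 16 of 23 alternative fits, among them each that left out a liver other than control animal 5 or EtOH animal 5. Between these 2 genes by position lie Akr1c13 and Akr1c14, neither of them called. Akr1c14, the rat 3-alpha-hydroxysteroid dehydrogenase, was the most abundant of all 67 members at 703.9 ± 23.2 and 694.1 ± 42.2 RPKM, and its fitted difference of -0.01 (95% interval -0.11 to 0.09) changed sign with median scaling. Akr1c13 was at 3.45 ± 2.79 and 5.89 ± 5.27 RPKM (adjusted p = 0.59). Genes of this cluster are similar in sequence, and reads shared between them are an uncertainty for the low ones. Akr1d1, the 5-beta-reductase of bile acid synthesis on chromosome 4, was at 119.2 ± 20.5 and 143.2 ± 9.86 RPKM, with a difference of 0.42 that was not called (adjusted p = 0.12).

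Of the 14 Hsd genes only Hsd17b7 was called. Hsd17b11, a lipid droplet-associated dehydrogenase and the most abundant Hsd gene, was at 249.4 ± 15.8 and 255.2 ± 34.2 RPKM, with a fitted difference of 0.13 (95% interval -0.0044 to 0.26). Hsd17b2, which oxidizes estradiol and testosterone, was at 65.6 ± 30.9 and 111.0 ± 79.6 RPKM, and its difference of 0.78 was not called (adjusted p = 0.31). EtOH animal 6 was at 267.4 RPKM and the other EtOH livers ran from 52.3 to 118.5 RPKM. Of the steroid enzymes outside the families 8 were tested and none was called, with a median difference of 0.11.

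Cbr4, a mitochondrial reductase, was the most abundant of the 3 Cbr genes at 12.7 ± 2.92 and 14.3 ± 1.61 RPKM (fitted difference 0.32, adjusted p = 0.24). Cbr1, the cytosolic carbonyl reductase, was at 5.11 ± 1.45 and 3.26 ± 0.667 RPKM (fitted difference -0.49, adjusted p = 0.22). No Cbr gene was called.

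Hsd17b13, a lipid droplet protein of hepatocytes next to Hsd17b11 on chromosome 14, showed a difference between animals in the share of its transcript rows. It has 3 rows, and the row with the highest mean made up 22.3 to 30.3% of the gene's summed RPKM in the 6 control livers. In EtOH animals 1, 3 and 6 the share was 28.0%, 26.1% and 25.2%. In EtOH animals 2, 4 and 5 it was 65.1%, 60.7% and 63.3%. The summed level over the rows did not differ to the same degree, at 139.6 ± 8.34 RPKM in control and 138.4 ± 16.7 in EtOH livers (fitted difference 0.13, adjusted p = 0.34). This gene was chosen after its values were seen. The row with the highest mean owes that place to the EtOH livers. In control livers its mean was 37.2 RPKM, below the 51.6 and 50.7 RPKM of the other rows. Its difference of 0.75 thus comes from a row picked through the group where it is high, and was not called (limma adjusted p = 0.20). The other rows had differences of -0.14 and -0.62, also not called (limma adjusted p = 0.67 and 0.34).

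**Figure D4:**
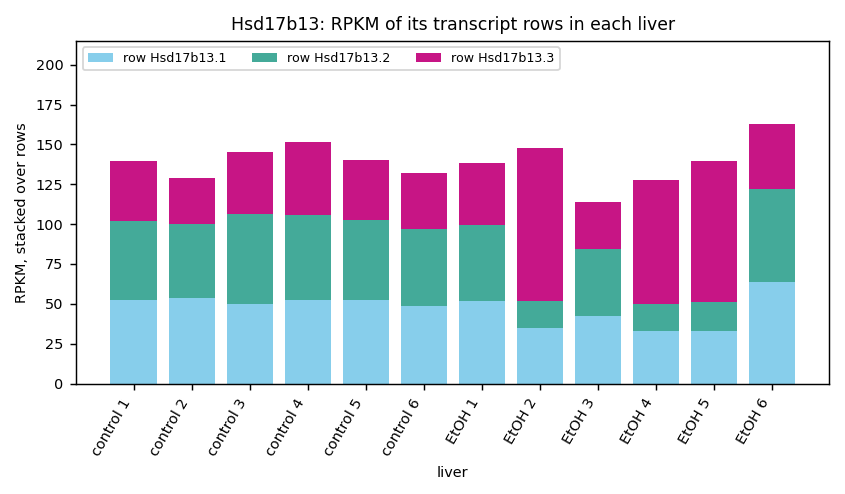
RPKM of the 3 transcript rows of Hsd17b13, stacked for each liver. The row Hsd17b13.3 takes 60.7 to 65.1% of the bar in EtOH animals 2, 4 and 5 and at most 30.3% in the other livers, while the height of the bar stays between 114.0 and 162.9 RPKM.

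Rows of Aldh3a2 and Aldh4a1 also traded places between livers, in both groups. The row Aldh3a2.2 was listed at 0 in control animals 2, 3 and 4 and in EtOH animal 5, where the other rows of the gene were not, and Aldh3a2.3 was listed at 0 in control animal 6. Summed over its 3 rows, Aldh3a2 was at 189.7 ± 16.9 and 169.8 ± 22.7 RPKM, a fitted difference of -0.03 (adjusted p = 0.86), against -0.29 for the main row. The main row of Aldh4a1, the proline pathway's P5C dehydrogenase, was listed at 0 in control animal 4, where the other row held all of the gene's 70.7 RPKM. Summed over its 2 rows Aldh4a1 was at 81.0 ± 5.93 and 82.8 ± 5.39 RPKM, and the fitted difference was 0.20 (adjusted p = 0.063) against 1.15 for the main row. A row listed at 0 can be a failed estimate, and values of single rows of these genes are best read beside the sums.

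By level, the members covered a wide range. 15 had a mean of at least 100 RPKM, 18 were below 1 RPKM, and 7 had fewer than 10 recovered reads over all 12 livers (Adh6a, Aldh3a1, Dhrs9, Hsd17b14, Hsd3b, Hsd17b1 and Hsd17b3). 51 were above 0 in every liver. Summed over members, the Aldh genes made up the largest amount at 1675 ± 88.5 RPKM in control and 1555 ± 101 in EtOH livers, followed by the Akr genes at 1433 ± 110 and 1275 ± 95.5 RPKM. The Adh genes summed to 706.1 ± 83.1 and 631.1 ± 56.9 RPKM and the Hsd genes to 654.3 ± 67.5 and 693.8 ± 117.0 RPKM. The Rdh genes summed to 569.3 ± 59.1 and 515.7 ± 36.6 RPKM. These sums carry no normalization between livers, and the ranges of both groups overlapped in each of them. Over the 49 members above 1 RPKM the median difference was -0.01 after quantile normalization and -0.14 as deposited, with 26 and 35 negative, and over all rows at that level it was 0.01 and -0.08.

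**Figure D5:**
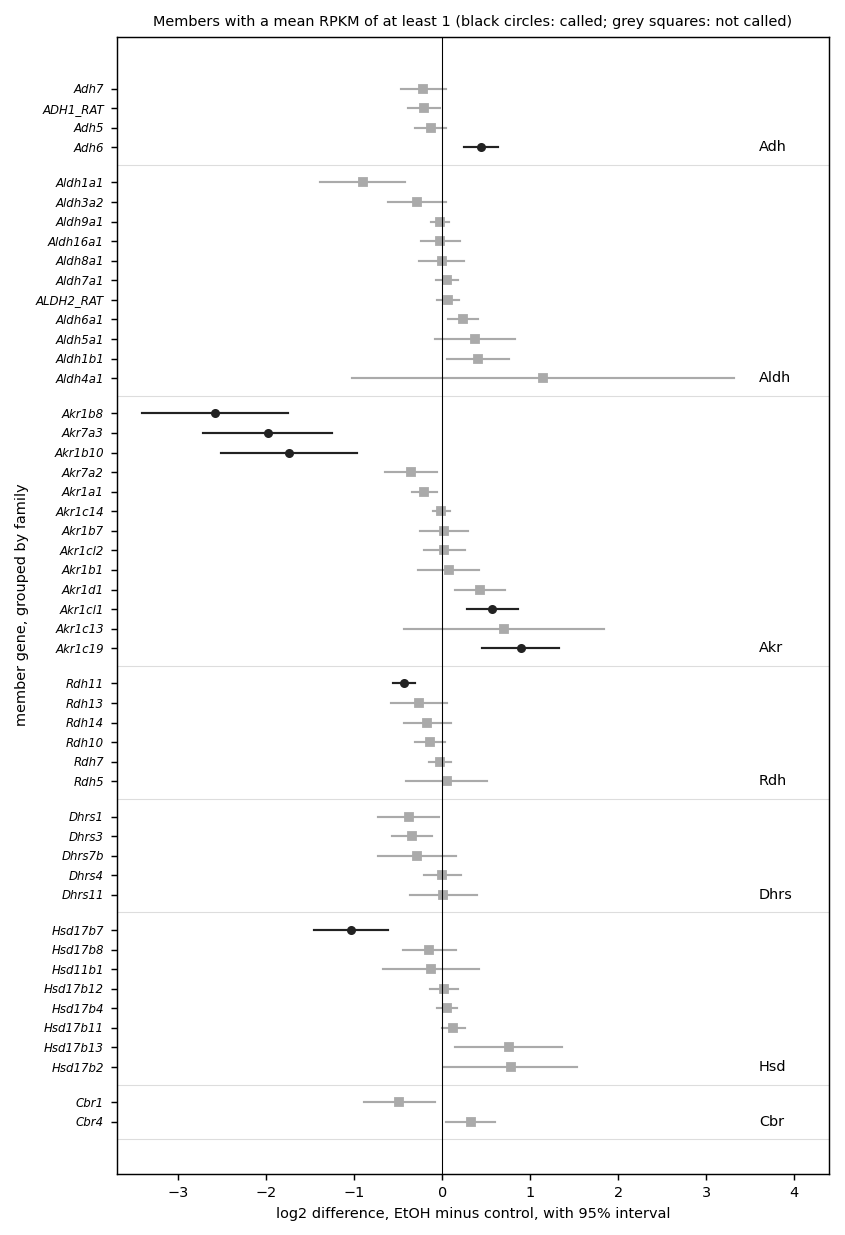
Fitted log2 difference, EtOH minus control, with its 95% interval for the 49 members with a mean of at least 1 RPKM, grouped by family. The 8 called members are black circles and lie between -2.58 and 0.89, and Aldh4a1 has the widest interval among the grey squares.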

How the data were processed

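Liver RNA of 6 EtOH and 6 control rats was sequenced as paired-end 101 nt reads from a poly(A) library, all samples in a single lane. The authors mapped reads with CLCbio Genomics Workbench 4.9 and deposited RPKM per transcript for 34391 transcripts; neither the genome build nor the handling of reads that match several genes is given in the sources used here. Of these, 12673 were at 0 in every liver and 21718 were tested. All 21718 gave whole reads, within 0.001 of a read, when divided by the value of 1 read. For the 2052 rows above 0 in only 1 liver this holds by construction. Rows above 0 in only a few livers can also readily give a match, so the check says little about them. Reads are recovered only up to a common divisor, so small read numbers are minimums.

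Values were set to log2(RPKM + 0.5), quantile normalized and fitted with limma 3.58.1 (R 4.3.3, trend, group as the only term), two-sided, with Benjamini-Hochberg adjustment over all 21718 rows and a threshold of 0.05. A fold on this scale understates the change of low genes. On simulated data of 21718 rows, 6 livers against 6, the test called 164 of 200 rows changed 2-fold and 10 unchanged rows. The simulation gave every row the same relative spread between livers in both groups. Only rows above a minimum number of reads were changed. Its figures therefore do not carry over to members with few reads or with a wide control spread, such as Akr1b8. Tables were assembled with Python and pandas, whose versions are recorded with the results.

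The members and the gene lists were chosen with earlier results of these data known. Members described singly were those called, the enzymes of the route from ethanol to acetate, and in each family the most abundant member and that with the smallest p; others named were chosen after their values were seen. The route's rule also names 2 genes not analysed here. Listed genes without a row were not analysed here. Alternatives covered the pseudocount (0.1, 1), scaling, minimum level, trend, a square-root test after the authors' description, limma voom on recovered reads, a replicate block, and leaving out each liver. Summing the rows of each gene name was added after seeing the data. No sample stands for pooled animals in the labels. Each limma p-value sets a group difference against the spread between rats within the groups, and limma moderates that spread over all rows. Per the labels the samples differ in no other recorded way than group and the 1 week of age of EtOH animal 6. Depth limits members with few reads.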

Additional observations from a re-analysis of the deposited data

Results flagged for a closer look

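Of 68 groups of 6 livers checked for a value far from the rest, 6 held one, and chance marks about 1 in 20 groups. Control animal 2 stood apart for Akr1b8 at 78.7 RPKM. Control animal 3 stood apart for Adh5 at 103.7 RPKM, Akr1a1 at 195.3 RPKM and Rdh7 at 611.8 RPKM, in each case as the highest control liver. EtOH animal 6, the animal collected at 39 weeks, stood apart for Hsd17b2 at 267.4 RPKM and for Akr1c13 at 16.1 RPKM. Without control animal 2 the fitted difference of Akr1b8 remained called, and Adh5, Akr1a1 and Rdh7 were not called with or without control animal 3. What sets these values was not tested.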

How the results depend on the processing

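Members called lower numbered 5 and called higher 3. The square-root unmoderated test gave 2 lower and 0 higher, with Akr1b8 (adjusted p = 0.076) and Akr7a3 (0.066) among those lost, and leaving out single livers gave 3 to 6 lower and 0 to 3 higher, with 3 and 0 without EtOH animal 2. The 3 called higher became 1 with no normalization between livers and 0 with the replicate block, which gave 4 lower; the causes were not tested. Called higher members were 0 without EtOH animals 4 or 6 and 1 without EtOH animals 1 or 3 or control animals 1, 2 or 4. The replicate block took calls over all rows from 526 to 113. Among members it lost Akr1b10 (limma adjusted p = 0.11), Adh6 (0.067), Akr1c19 (0.093) and Akr1cl1 (0.13). Deviations of same-numbered animals were close to uncorrelated (-0.0669 to 0.0322 over 11086 rows), and only animal 1 correlated best with its own number. Correlations over all these rows cannot show whether same-numbered animals shared a factor that acts on some genes. No called member changed direction in any alternative run. Among uncalled members the sign changed for Adh5 with rows summed (0.0065), for ALDH2_RAT with no normalization (-0.0556) and with voom (-0.0182), for Akr1c14 with median scaling (0.0704), and for Dhrs4 with no normalization (-0.166), median scaling (-0.075), voom (-0.046) and rows summed (-0.0155). With single livers left out, Akr1c14 ran from -0.0296 to 0.0084, Dhrs4 from -0.051 to 0.0751 and Rdh7 from -0.0549 to 0.014. Counts over all rows differed from 526 by more than 1.5 times with the minimum mean RPKM of 1 (860 of 11086), the square-root test (322), the block (113) and without control animal 2 or 4 or EtOH animal 2, 3, 4 or 5 (212 to 298); without each other single liver they were 351 to 656. Of 552 values of named members under alternatives, 473 kept direction and side of the threshold, 48 lost the call, 11 gained it and 20 changed sign. Precision is limited for members with about 100 reads in a group, such as Akr1c19 in control livers, Akr1b8 and Akr1b10 in EtOH livers, and Cbr1.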

Other observations

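Several members that were not called had 95% intervals that lay on one side of 0. Aldh6a1, the methylmalonate semialdehyde dehydrogenase of valine breakdown, was at 278.5 ± 24.6 RPKM in control and 305.2 ± 20.3 RPKM in EtOH livers, with a fitted difference of 0.23 (95% interval 0.06 to 0.41, limma adjusted p = 0.16). Dhrs1 was at 19.5 ± 6.13 and 12.9 ± 1.06 RPKM, and its control livers 1 and 6, at 13.8 and 12.8 RPKM, lay within the range of the EtOH livers (limma adjusted p = 0.27). In all, 22 of 67 members had an unadjusted limma p below 0.05, against 3364 of 21718 rows tested, 15.5%. The background counts every row and rows of every level, while members are counted with 1 row per gene. The families were chosen with earlier results of these data known. The count is therefore not read as a result about the members.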
